A study of Mus musculus with 10 samples.

Results

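The genes described here carry glucose from the blood into the tricarboxylic acid (TCA) cycle. They comprise the glucose transporters, the enzymes of glycolysis, lactate dehydrogenase, the mitochondrial pyruvate carrier, the pyruvate dehydrogenase complex with its kinases and phosphatase, the TCA cycle enzymes, and the enzymes of the malate-aspartate shuttle. The set was a list of gene symbols drawn up by function, and all 45 were found among the 24537 genes of the table. All 45 passed the filter of at least 10 counts summed over the libraries.

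RNA was sequenced from heart sections of 10 mice aged 6 weeks, 5 control (Rosa26-rtTA2+/-;TRE-SOD2-shRNA-/-) and 5 iSOD2 (Rosa26-rtTA2+/-;TRE-SOD2-shRNA+/-). Both genotypes carried the doxycycline-dependent transactivator rtTA, driven from the ubiquitously active Rosa26 locus, and both were exposed to doxycycline in utero through the chow of the dam, which ended at birth. Only iSOD2 mice also carried a hairpin against Sod2, whose product removes superoxide inside mitochondria, so knockdown was neither restricted to cardiomyocytes nor still induced at sampling. There were 3 male and 2 female controls, against 2 male and 3 female iSOD2 mice. Litter A supplied 2 animals of each genotype and litter B the other 3. Values are given in the order control 1, 2, 3, 4 and 6, then iSOD2 5, 7, 8, 9 and 10.

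Glycolysis splits glucose to pyruvate in the cytosol, and pyruvate is then either reduced to lactate or taken into the mitochondrion by a carrier made of the proteins MPC1 and MPC2. The pyruvate dehydrogenase complex turns it into acetyl-CoA, and pyruvate dehydrogenase kinases switch that complex off. The adult heart draws most of its ATP from fatty acids, with glucose, lactate and other fuels making up the rest, and all of them meet in the TCA cycle, where citrate synthase joins acetyl-CoA to oxaloacetate.

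The libraries held 16448090.5 to 24263085.5 counts over genes. Sod2 itself was not lower at this age, at 10781 ± 449 normalized counts in iSOD2 mice against 10573 ± 588 in controls (SD, 5 mice each, DESeq2 adjusted p = 0.806). All 8 ventricular cardiomyocyte markers were present, and their mean log2 level was 16.90 in iSOD2 hearts against 16.87 in controls (exact permutation p = 0.460). The 8 hepatocyte markers, in contrast, were at 7.09 ± 2.003 and 8.92 ± 0.60 (SD, control and iSOD2, n = 5 each, exact permutation p = 0.0238, 0.262 after adjustment over 11 marker lists), with a summed level of 203 to 8791 normalized counts in controls and 4496 to 18494 in iSOD2 mice. All 8 were higher in iSOD2 hearts, none was at 0 in every mouse, and the lowest control was mouse 1. Atrial cardiomyocyte markers were at 4.36 ± 0.54 and 5.51 ± 1.75 (SD, control and iSOD2, n = 5 each, exact permutation p = 0.143, 0.393 after adjustment). Their highest level, 8.57, was that of iSOD2 10, while the other iSOD2 mice had 4.40 to 5.31. The part of the hepatocyte and atrial markers in the results below was not tested.

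Transcripts of the pathway were abundant in every heart. The 45 genes together took 2.55% to 2.78% of all counts, 2.68% ± 0.0754 in iSOD2 mice against 2.61% ± 0.0448 in controls (SD, n = 5 each). To compare genes with each other, levels were expressed as normalized counts per kilobase of exon. On this scale 36 of the 45 ranked in the upper 5% of the 17728 genes that passed the filter. Aldoa, the aldolase of muscle, led with a mean of 37778 per kilobase and was rank 19 of all genes, followed by Gapdh (23473), the muscle enolase Eno3 (15941), the mitochondrial NADP-dependent isocitrate dehydrogenase Idh2 (15256), the cytosolic malate dehydrogenase Mdh1 (12605) and Ldhb (12528). At the other end stood Pfkp (344), the pyruvate dehydrogenase phosphatase Pdp1 (282), the basal glucose transporter Slc2a1 (93.2) and Pfkfb1 (85.7). The highest and the lowest ends of this order lay far outside the spread between mice, whereas neighbours such as Mdh1 (11826 ± 809 in controls, per kilobase) and Ldhb (12193 ± 575) did not differ beyond it.

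**Figure D1:**
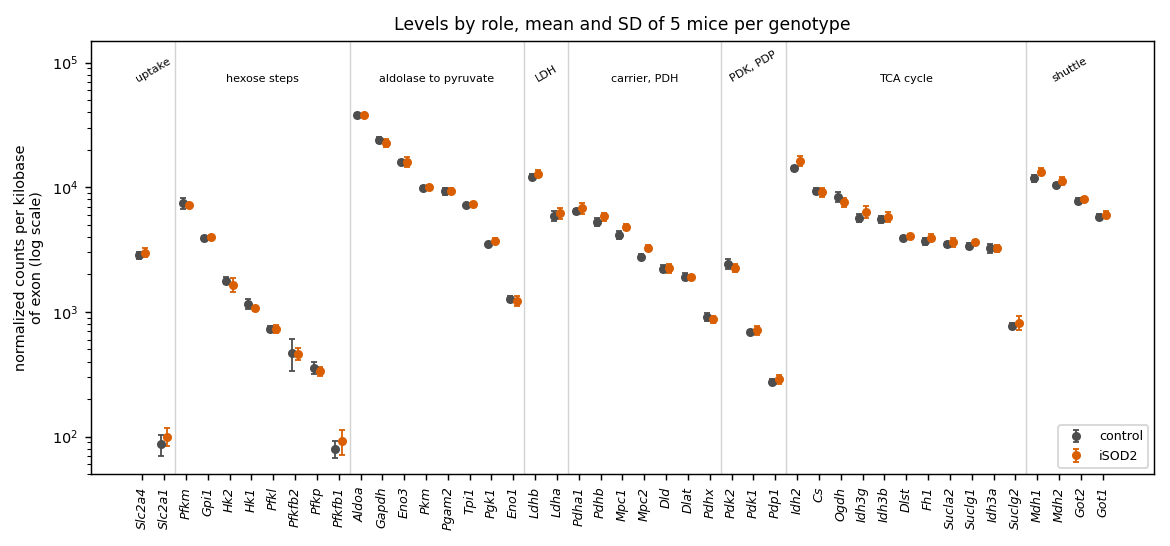
Levels of the 45 genes, grouped by role and ordered within each role, as normalized counts per kilobase of exon on a log axis, with points and bars for the mean and SD of 5 mice per genotype. Control (grey) and iSOD2 (orange) points lie almost on top of each other from Aldoa at 37719 and 37837 down to Pfkfb1 at 79.5 and 91.8.

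Within the 20 genes of uptake, glycolysis and lactate production, the muscle or heart form was the most abundant of each enzyme family in every mouse. Slc2a4, the insulin-responsive transporter, made up 96.0% to 98.0% of the summed per-kilobase level of Slc2a4 and Slc2a1. Muscle phosphofructokinase Pfkm made up 85.5% to 88.9% of the 3 phosphofructokinases, and Eno3 91.5% to 93.8% of the 2 enolases counted. The share of hexokinase transcripts from Hk2, the form that follows insulin and workload, was smaller, between 56.2% and 64.2%. A further annotated gene, Eno1b, lies over Eno1 on the same strand and had 2155 ± 117 normalized counts in controls (SD, n = 5), so the division of reads between them is uncertain.

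No isoform share passed the exact test between genotypes over all mice. The heart form of lactate dehydrogenase, Ldhb, took 70.3%, 69.2%, 64.4%, 64.6% and 67.9% of the Ldhb and Ldha level in controls, and 69.0%, 69.7%, 69.2%, 66.2% and 63.8% in iSOD2 mice. Its mean was 67.3% ± 2.66 and 67.6% ± 2.49 (SD, n = 5 each, exact permutation p = 0.841). The genotypes overlapped fully, while the 4 litter A mice, at 69.2% to 70.3%, lay above all 6 of litter B.

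Among the pyruvate dehydrogenase kinases, Pdk2 took 79.0%, 79.3%, 78.6%, 75.1% and 76.8% of the Pdk2 and Pdk1 level in controls and 75.5%, 77.5%, 74.3%, 77.3% and 75.5% in iSOD2 mice. The means were 77.8% ± 1.77 and 76.0% ± 1.35 (SD, n = 5 each), a difference of -1.74 percentage points (exact permutation p = 0.119). With arrangements restricted to mice of the same sex the p was 0.03, and within litters it was 0.15. After removal of the length trend described below, the difference was -2.83 points (exact permutation p = 0.0317). Adjusted over the 8 families, the exact permutation p over all mice was 0.905 for every share, this one included. The p within sex, within litters and after removal of the length trend were not adjusted over the families. Pdk4, a kinase outside the gene set, was not counted in the Pdk2 share. Its mean over all mice was 1748 per kilobase, against 2351 for Pdk2 and 703 for Pdk1.

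The remaining families gave the same picture of close means. Slc2a4 averaged 97.0% and 96.7% (exact permutation p = 0.492), Hk2 60.5% and 60.7% (p = 0.905 by the same exact test) and Pfkm 87.2% and 87.1% (exact p = 0.841). Eno3 averaged 92.6% in controls and 92.8% in iSOD2 mice (exact p = 0.667). Sucla2, the ATP-forming beta subunit of succinyl-CoA ligase, took 81.8% and 81.7% of its level summed with the GTP-forming Suclg2 (exact p = 0.873). Pfkfb2, the heart form of the enzyme that makes the glycolytic activator fructose 2,6-bisphosphate, averaged 84.6% and 83.4% (exact p = 0.659), with control 2 highest at 92.3%.

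**Figure D2:**
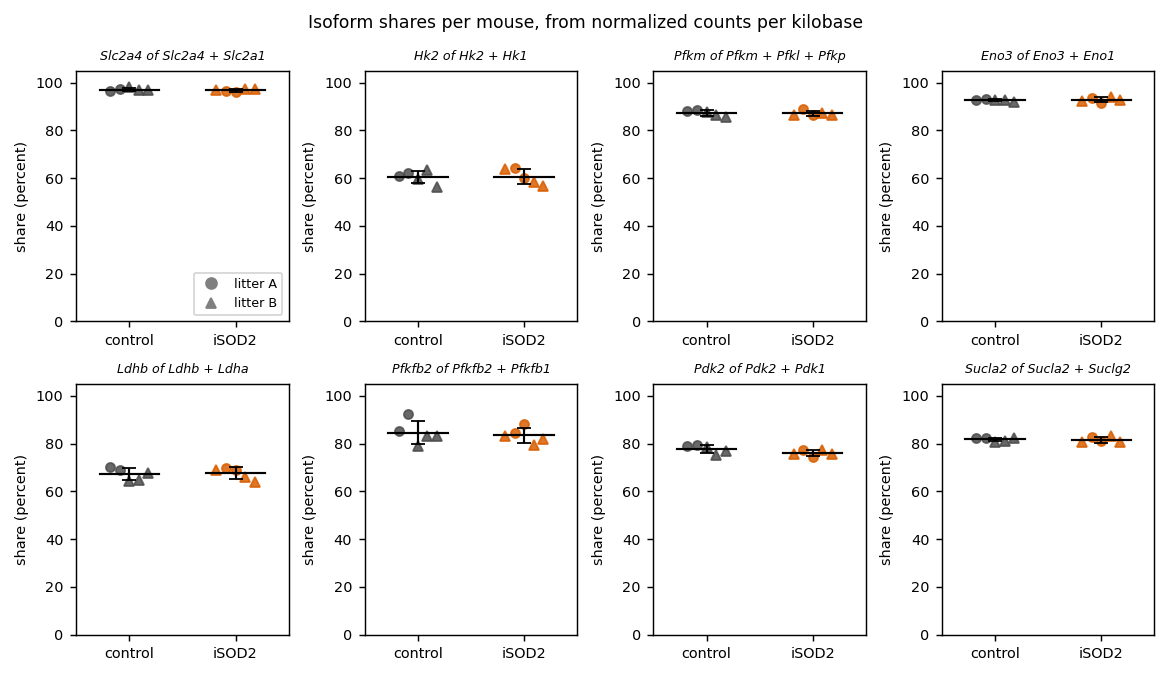
Share of each named gene in the per-kilobase level of its isoform family, in percent, for each mouse (circles litter A, triangles litter B), with black lines for the mean and SD of each genotype. In all 8 panels control and iSOD2 mice overlap, from the hexokinases at 56.2% to 64.2% to the glucose transporters at 96.0% to 98.0%.

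The genotypes were compared gene by gene to ask whether embryonic Sod2 knockdown left a lasting difference in these transcripts. In the DESeq2 Wald test a gene was called at an adjusted p of at most 0.05 and an absolute log2 fold change above 0.25. None of the 45 genes was called, against 2.96% of the 9479 genes with an adjusted p. With no fold threshold, 2 of the 45 had an adjusted p of at most 0.05, Mpc1 and Mpc2, the 2 subunits of the mitochondrial pyruvate carrier, both higher in iSOD2 hearts. The background was 6.09% in either direction and 3.04% higher, and 2 of 45 lay between these shares. By edgeR's quasi-likelihood test none of the 45 reached an adjusted p of 0.05. In a bulk sample, fewer cells of a type and less RNA per cell cannot be told apart.

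Before adjustment, 8 of the 45 had p under 0.05 in the DESeq2 test, all higher in iSOD2 hearts, against a background of 13.2% in either direction and 7.29% higher. These were Mpc1, Mpc2, Pdhb, Idh2, Idh3g, Suclg1, Mdh1 and Mdh2. The edgeR test gave 7 of them, all but Mdh2. In the whole set 31 genes had a log2 fold change above 0 and 14 below, with a median of 0.04, while 48.5% of the 12151 genes whose mean reached 50 normalized counts were above 0, with a median of -0.0045. The range ran from -0.14 for Ogdh to 0.23 for Mpc2. For 31 of the 45 the 95% interval of the log2 fold change lay inside plus or minus 0.25, against 41.7% of those 12151 genes, so for these the interval left out a change past the fold threshold.

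**Figure D3:**
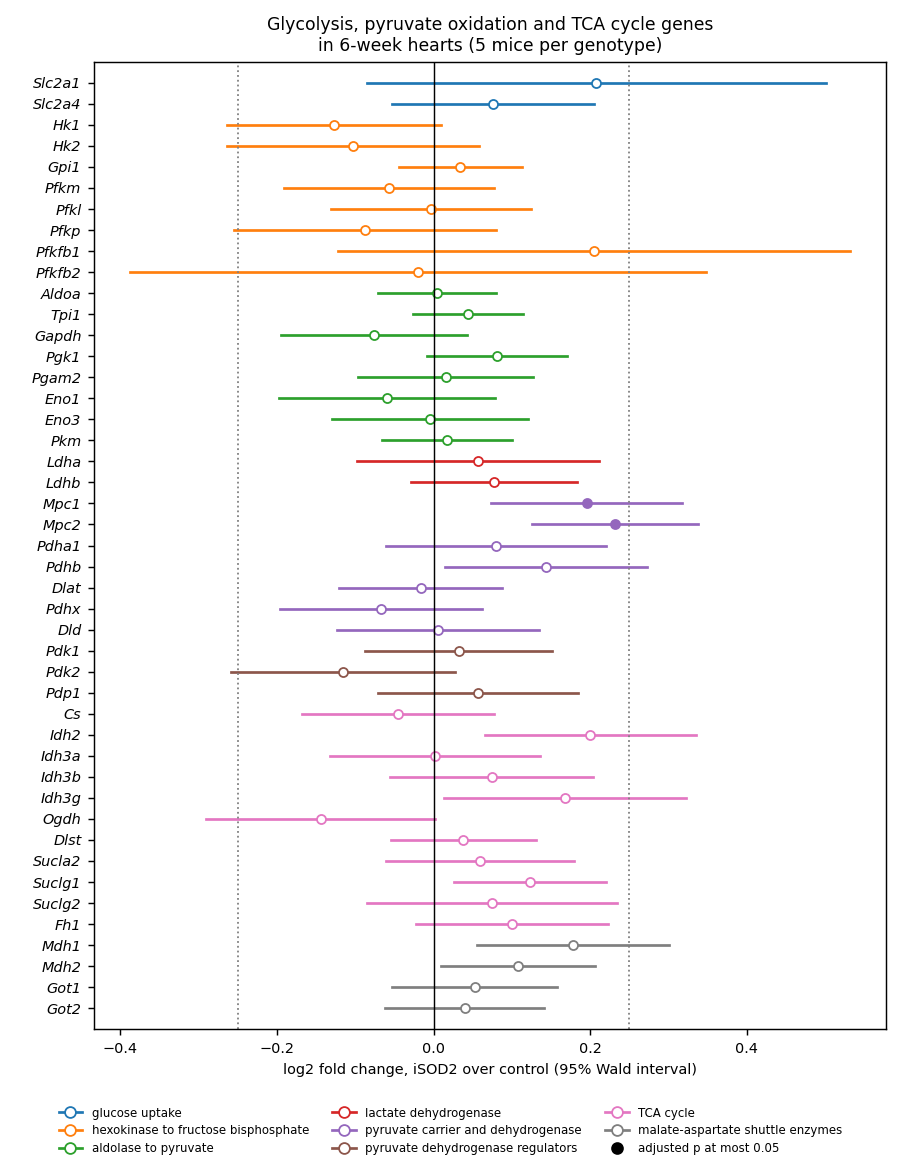
Log2 fold change of iSOD2 over control hearts for each of the 45 genes, coloured by role, with bars for the 95% Wald interval, dotted lines at plus and minus 0.25, and filled points for an adjusted p of at most 0.05 (DESeq2). The 2 filled points are Mpc1 at 0.20 and Mpc2 at 0.23, and the widest intervals belong to Pfkfb2, Pfkfb1 and Slc2a1.

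Mpc2 had the highest log2 fold change of the 45 genes as counted, though not after removal of the length trend described below. MPC1 and MPC2 assemble in the inner mitochondrial membrane as a heterodimer that admits cytosolic pyruvate to the matrix. Mpc1 (NM_018819) lies on chromosome 17, at 8283813 to 8297661 of mm10, and Mpc2 (NM_027430) on chromosome 1, at 165461208 to 165481214, both on the plus strand. Since the 2 subunits were the genes at an adjusted p of at most 0.05, the sequences before their starts are shown, up to 250 bases taken from RefSeq (build GRCm38.p6), with matches in capitals to the hypoxia response core (ACGTG or GCGTG) or to the core TGCGCA of the nuclear respiratory factor 1 (NRF1) site, on either strand. The Mpc1 stretch is chr17:8283537-8283786, and the 198 bases for Mpc2 are chr1:165461010-165461207, which end just before the start used in the table.
Mpc1: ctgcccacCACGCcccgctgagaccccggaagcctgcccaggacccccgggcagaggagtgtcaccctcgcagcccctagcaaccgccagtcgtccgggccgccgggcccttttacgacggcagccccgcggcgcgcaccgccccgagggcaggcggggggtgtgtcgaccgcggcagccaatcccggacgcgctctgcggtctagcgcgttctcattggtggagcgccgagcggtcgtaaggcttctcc
Mpc2: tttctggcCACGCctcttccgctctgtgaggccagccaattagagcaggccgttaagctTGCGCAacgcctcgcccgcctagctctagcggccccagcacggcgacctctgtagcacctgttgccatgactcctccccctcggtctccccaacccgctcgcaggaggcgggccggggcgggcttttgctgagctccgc

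Each stretch holds the hypoxia core on the minus strand near its far end, and that of Mpc2 also the NRF1 core. These are matches of letters only. A RefSeq promoter was found for 42 of the 45 genes, and over the 250 bases before the start the hypoxia core occurred in 30 of them (71.4%), against 44.7% of all 17595 promoters and 57.3% of the 9328 promoters of genes whose mean reached 50 normalized counts. The NRF1 core occurred in 4, Pfkl, Aldoa, Mpc2 and Got2 (9.5%, against 8.3% of all promoters and 11.9% of those past that mean). The core AAGGTCA of the estrogen-related receptors occurred in 2, Pfkfb1 and Got1 (4.8%, against 3.6% of all and 2.6% of those past that mean), the longer TCAAGGTCA in 0 (0.3% and 0.2%), and the E box CACGTG, which contains the hypoxia core, in Pfkfb2, Ldha and Pdk2 (7.1%, against 6.8% and 8.7%).

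Mpc2 had 2368, 2332, 2226, 2530 and 2312 normalized counts in controls and 2958, 2839, 2545, 2761 and 2726 in iSOD2 mice. The lowest iSOD2 mouse, number 8, lay just above the highest control, number 4, so the genotypes did not overlap, which was true of no other of the 45 genes, against 3.75% of all genes in either direction and 2.09% higher. Its fold was 1.17 (95% interval 1.09 to 1.26, log2 0.23 ± 0.05 SE, adjusted p = 0.00188 by DESeq2 and 0.0745 by edgeR). Within litter A its log2 fold change was 0.20 and within litter B 0.25.

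Mpc1 had 3767, 3672, 3917, 4096 and 3347 normalized counts in controls and 4646, 4326, 3979, 4248 and 4328 in iSOD2 mice. Here only iSOD2 8 fell inside the control range, below control 4, and within each litter every iSOD2 mouse lay above every control. The fold was 1.15 (95% interval 1.05 to 1.25, log2 0.20 ± 0.06 SE, adjusted p = 0.0348 by DESeq2 and 0.154 by edgeR), with a log2 fold change of 0.16 within litter A and 0.22 within litter B. Leaving out 1 mouse at a time kept the adjusted p of Mpc2 at most 0.0253, whereas that of Mpc1 rose to as much as 0.115 and passed 0.05 only without control 4 or iSOD2 8. An antisense gene, 4930506C21Rik, covers part of Mpc1, and its own counts, 882 ± 40.4 in iSOD2 mice against 793 ± 46.8 in controls (SD, n = 5 each), were also higher (log2 0.15 ± 0.06 SE, adjusted p = 0.119 by DESeq2). Without a stated strand setting the reads of the 2 genes cannot be told apart where they overlap.

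Exon length moved with these differences. Mpc2 has the shortest exons of the 45 genes (847 bp), and Mpc1 and Pgam2 follow with 901 bp, while Pfkfb2 (7291 bp) and Ogdh (6634 bp) have the longest. Spearman's rho of log2 fold change and exon length was -0.54 over the 45 genes and -0.47 over the 12151 genes of mean 50 or more, which share the same 10 libraries. All 8 genes with an unadjusted p under 0.05 were among the 23 of at most the median exon length (2250 bp). The median log2 fold change was 0.08 in those 23 and 0.004 in the 22 longer genes.

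With the trend of counts on exon length removed in each library, rho over the 45 genes was 0.03 and the medians of the shorter and longer genes were 0.016 and 0.022. The log2 fold change of Mpc2 was then 0.10 (DESeq2 adjusted p = 0.323) and that of Mpc1 0.07 (DESeq2 adjusted p = 0.723), and none of the 45 had an adjusted p of at most 0.05. Pgam2, the muscle phosphoglycerate mutase, has exons as long as those of Mpc1. Its log2 fold change was 0.02 (adjusted p = 0.916 by DESeq2) before removal and -0.11 after it. The part of exon length in the difference of any single gene was not tested. Idh2 and Mdh1 kept more of their difference, each at 0.14 after removal (adjusted p = 0.328 and 0.253 by DESeq2).

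**Figure D4:**
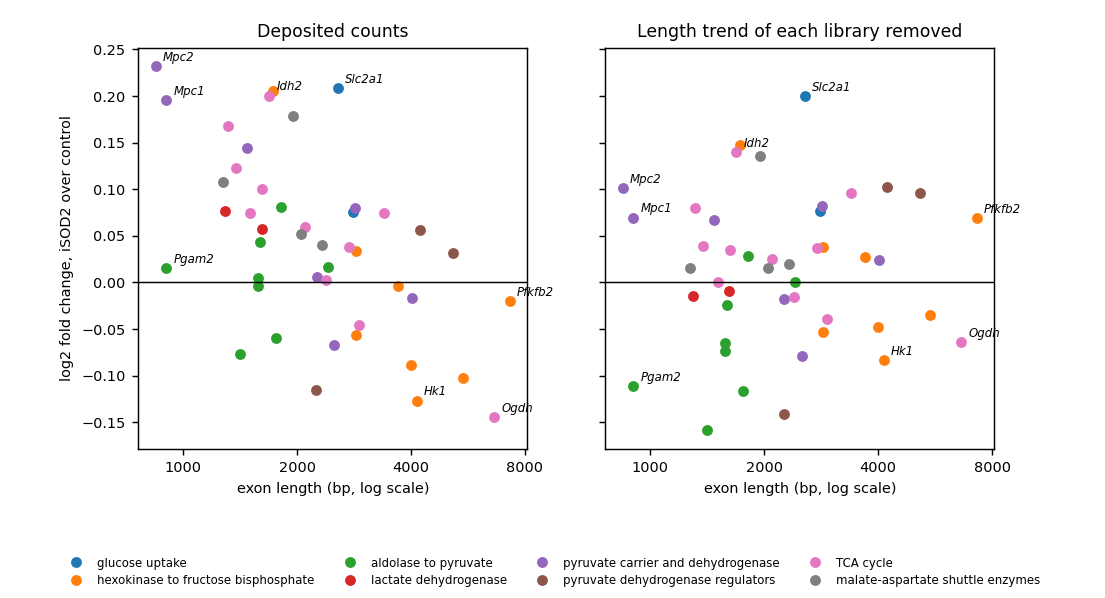
Log2 fold change of iSOD2 over control hearts against exon length (bp, log axis) for the 45 genes, coloured by role, as counted (left) and after the length trend of each library was removed (right). On the left the values fall from Mpc2 at 847 bp to Ogdh at 6634 bp (rho -0.54), and on the right no such slope is seen (rho 0.03).

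Of the 7 genes of the pyruvate carrier and the pyruvate dehydrogenase complex together, 5 had a log2 fold change above 0, with a median of 0.08. That count and median include the carrier genes Mpc1 (0.20) and Mpc2 (0.23), and the values of the complex alone follow. Pdhb, the beta subunit of the decarboxylating E1 enzyme, had 7651, 7340, 7907, 8689 and 7306 normalized counts in controls and 9563, 8446, 8328, 7856 and 8779 in iSOD2 mice (log2 0.14 ± 0.07 SE, adjusted p = 0.183 by DESeq2). Pdhx, which anchors the E3 enzyme, had 2293, 2289, 2486, 2355 and 2025 in controls and 2300, 2134, 1979, 2195 and 2315 in iSOD2 mice (log2 -0.07 ± 0.07 SE, adjusted p = 0.609 by DESeq2). For both, the genotypes overlapped. The E1 alpha subunit Pdha1 was at 0.08 (overlapped on the opposite strand by Map3k15, itself at 0.23), the E2 core Dlat at -0.02 and the E3 enzyme Dld at 0.01 on the log2 scale.

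None of the 3 regulators of the complex within the gene set passed the test. Pdk2, the kinase that responds to NADH and acetyl-CoA, had 5850, 6143, 5428, 4916 and 5169 normalized counts in controls and 5322, 5631, 4877, 4745 and 4808 in iSOD2 mice (log2 -0.12 ± 0.07 SE, adjusted p = 0.380 by DESeq2). Pdk1 had 3577, 3677, 3403, 3743 and 3590 in controls and 3965, 3755, 3877, 3209 and 3587 in iSOD2 mice (log2 0.03 ± 0.06 SE). The phosphatase Pdp1, which reactivates the complex, had 1179, 1124, 1249, 1154 and 1133 and then 1125, 1181, 1367, 1145 and 1252 (log2 0.06 ± 0.07 SE). For Pdk2, iSOD2 5 and 7 lay within the control range and 8, 9 and 10 just below it.

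Of the 11 TCA cycle genes, 9 had a log2 fold change above 0 and none passed an adjusted p of 0.05, with a median of 0.07. Idh2 had 25569, 24482, 22207, 24357 and 23290 normalized counts in controls and 29768, 29582, 29009, 24534 and 24870 in iSOD2 mice. Numbers 5, 7 and 8 lay above every control and 9 and 10 among the controls, while within each litter every iSOD2 mouse lay above every control, and the fold was 1.15 (95% interval 1.05 to 1.26, log2 0.20 ± 0.07 SE, adjusted p = 0.0553 by DESeq2 and 0.187 by edgeR). With all 10 mice, the DESeq2 adjusted p of Idh2 was 0.0168 with litter as a covariate and 0.0336 with sex and litter, and with sex alone it stayed above 0.05. Upper-quartile scaling (adjusted p = 0.0434), and leaving out iSOD2 9 (0.0155) or iSOD2 10 (0.0243), also brought it under 0.05, while after length trend removal it was 0.328.

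Ogdh, the E1 enzyme of the 2-oxoglutarate dehydrogenase complex, had the lowest log2 fold change of the set. It had 59774, 62365, 53651, 51479 and 50728 normalized counts in controls and 50221, 57185, 48745, 49375 and 46009 in iSOD2 mice (log2 -0.14 ± 0.07 SE, adjusted p = 0.257 by DESeq2), and -0.06 after removal of the length trend. Within each litter every control lay above every iSOD2 mouse, but across litters the genotypes overlapped.

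The subunits of the NAD-dependent isocitrate dehydrogenase and of succinyl-CoA ligase gave smaller values. Idh3g, a regulatory subunit, had 8137, 7735, 6688, 7728 and 7080 normalized counts in controls and 8616, 9086, 9340, 7509 and 7433 in iSOD2 mice (log2 0.17 ± 0.08 SE, adjusted p = 0.198 by DESeq2), while the catalytic Idh3a was at 0.00 and Idh3b at 0.07. Suclg1, the alpha subunit common to both ligases, had 4829, 4743, 4381, 4893 and 4364 in controls and 5363, 5109, 4914, 4886 and 5007 in iSOD2 mice (log2 0.12 ± 0.05 SE, adjusted p = 0.118 by DESeq2). Only iSOD2 9 lay inside the control range of Suclg1. Sucla2 had 7543, 7487, 6953, 7613 and 6994 and then 8495, 8011, 6917, 7427 and 7282 (log2 0.06 ± 0.06 SE). Suclg2 had 2655, 2593, 2666, 2860 and 2440 and then 3341, 2707, 2630, 2414 and 2817 (log2 0.07 ± 0.08 SE), with iSOD2 5 well above the rest. Citrate synthase, Cs, was at -0.05, the lipoyl-bearing Dlst at 0.04 and fumarase, Fh1, at 0.10 on the log2 scale.

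All 4 genes of the malate-aspartate shuttle, which carries reducing equivalents of glycolysis into the matrix, had log2 fold changes above 0, and none passed. Mdh1 had 23112, 22939, 22355, 25512 and 21213 normalized counts in controls and 29112, 26029, 24497, 24877 and 25766 in iSOD2 mice. Control 4 lay among the iSOD2 mice, and the fold was 1.13 (95% interval 1.04 to 1.23, log2 0.18 ± 0.06 SE, adjusted p = 0.0612 by DESeq2 and 0.205 by edgeR). Without control 4 the DESeq2 adjusted p of Mdh1 was 0.00732, and with upper-quartile scaling it was 0.0400.

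The mitochondrial partner Mdh2 had 13582, 13176, 12694, 13532 and 13400 normalized counts in controls and 14227, 15666, 14718, 13559 and 13375 in iSOD2 mice (log2 0.11 ± 0.05 SE, adjusted p = 0.194 by DESeq2). Here iSOD2 9 and 10 lay within the control range and the other 3 above it. The aspartate aminotransferases were closer, with Got1 at 0.05 and Got2 at 0.04. Got2, the mitochondrial form, had 19142, 18992, 18153, 17513 and 16895 in controls and 18214, 20280, 18554, 18462 and 17718 in iSOD2 mice.

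**Figure D5:**
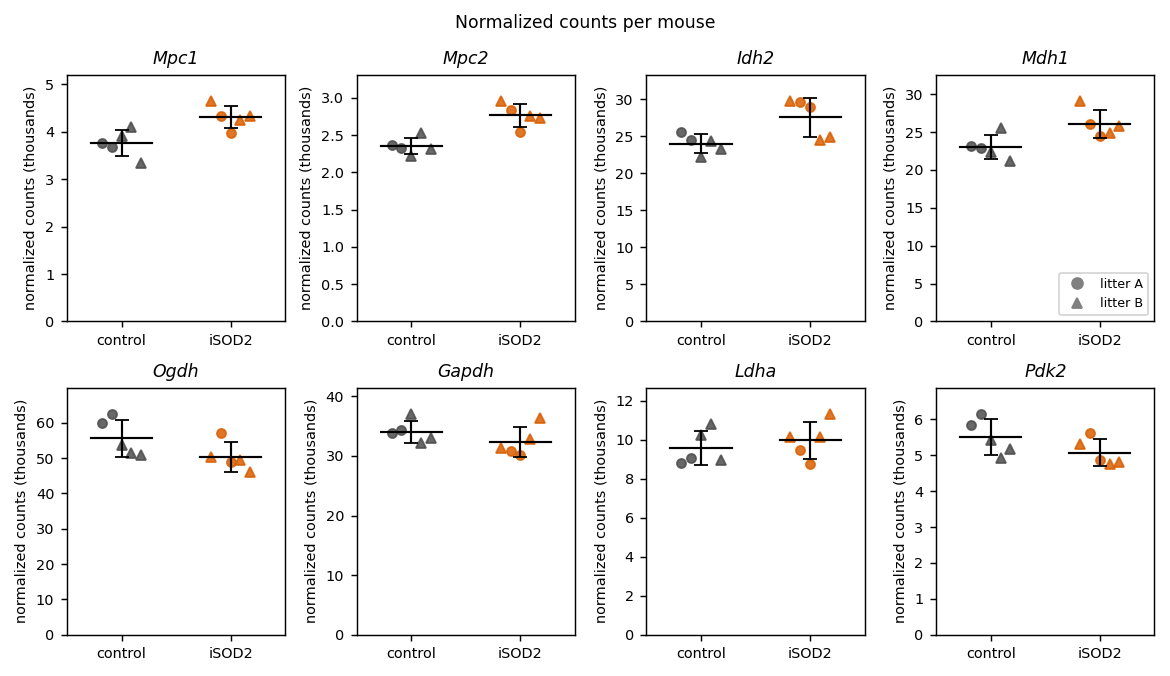
Normalized counts, in units of 1000, of 8 of the 45 genes in each mouse (circles litter A, triangles litter B), with black lines for the mean and SD of the 5 mice per genotype and every axis starting at 0. Mpc2 is the panel in which the genotypes do not overlap, with 2226 to 2530 counts in controls and 2545 to 2958 in iSOD2 mice.

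Glucose uptake and the early steps of glycolysis gave values on both sides of 0. Slc2a4 had 7675, 7751, 8514, 8514 and 7423 normalized counts in controls and 9429, 7934, 7753, 8152 and 8759 in iSOD2 mice (log2 0.08 ± 0.07 SE, adjusted p = 0.553 by DESeq2). Slc2a1 had 268, 203, 158, 249 and 228 and then 289, 278, 295, 207 and 212 (log2 0.21 ± 0.15 SE, adjusted p = 0.458 by DESeq2). Both overlapped between genotypes, and the wide interval of Slc2a1 (-0.09 to 0.50) includes changes past the fold threshold.

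From hexokinase to fructose bisphosphate, 6 of the 8 genes had a log2 fold change below 0, with a median of -0.04. Hk1, the constitutive hexokinase, had 4846, 4950, 4716, 4152 and 5464 normalized counts in controls and 4519, 4082, 4636, 4486 and 4370 in iSOD2 mice (log2 -0.13 ± 0.07 SE, adjusted p = 0.290 by DESeq2). Without control 4, its lowest control, the DESeq2 adjusted p of Hk1 was 0.0408 and its log2 fold change -0.18. Hk2 had 10060, 10726, 9296, 9514 and 9313 in controls and 10487, 9733, 9308, 8359 and 7656 in iSOD2 mice (log2 -0.10 ± 0.08 SE, adjusted p = 0.509 by DESeq2). The hexokinase values of the genotypes overlapped. The isomerase Gpi1 was at 0.03.

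The phosphofructokinases, which commit glucose to glycolysis, were close to 0. Pfkm had 23491, 23952, 20290, 19583 and 19680 normalized counts in controls and 20313, 22207, 19975, 20561 and 19810 in iSOD2 mice (log2 -0.06 ± 0.07 SE). Pfkl had 2577, 2621, 2606, 2843 and 2908 and then 2825, 2373, 2702, 2675 and 2949, with a log2 fold change of -0.0033 that was above 0 after removal of the length trend. Pfkp, which overlaps its neighbour Pitrm1, had 1575, 1516, 1229, 1274 and 1516 and then 1424, 1305, 1414, 1385 and 1163 (log2 -0.09 ± 0.09 SE). The 2 highest Pfkm values were those of controls 1 and 2, both of litter A.

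Of the bifunctional enzymes, Pfkfb2 had the highest coefficient of variation of the set in controls, and Pfkfb1 the highest in iSOD2 mice (22.2%). Pfkfb2 had 3464, 5025, 2468, 3042 and 3080 normalized counts in controls and 3933, 3338, 3504, 3215 and 2852 in iSOD2 mice, a coefficient of variation of 28.3% in controls, set by control 2. Its log2 fold change of -0.02 ± 0.19 SE carried an interval from -0.39 to 0.35. Pfkfb1 had 141, 99.1, 154, 145 and 146 in controls and 189, 145, 112, 198 and 147 in iSOD2 mice (log2 0.21 ± 0.17 SE), and received no adjusted p from the DESeq2 filter on low means. The interval of Pfkfb1 ran from -0.12 to 0.53, and both intervals include changes past the fold threshold.

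From aldolase to pyruvate kinase, where glycolysis earns its ATP, 5 of the 8 genes were above 0 and 3 below, with a median of 0.01, and all 8 intervals lay inside plus or minus 0.25. The highest value was that of Pgk1, phosphoglycerate kinase, with 6320, 6244, 6441, 6379 and 6342 normalized counts in controls and 6723, 6270, 7334, 6584 and 6647 in iSOD2 mice (log2 0.08 ± 0.05 SE, adjusted p = 0.307 by DESeq2). The lowest was that of Gapdh, with 33809, 34378, 36989, 32104 and 32943 and then 31250, 30788, 30206, 32813 and 36397 (log2 -0.08 ± 0.06 SE, adjusted p = 0.509 by DESeq2). Pgk1 was also the steadiest gene of the set in controls, at a coefficient of variation of 1.15%, and a single iSOD2 mouse, number 7, fell inside its narrow control range. Eno3 had 25578, 25565, 26453, 24041 and 24318 in controls and 24483, 25116, 21709, 27027 and 27260 in iSOD2 mice. Eno1 had 2260, 2096, 2346, 2141 and 2382 and then 2256, 1888, 2261, 2000 and 2360 (log2 -0.06 ± 0.07 SE), and both enolases overlapped between genotypes. Aldoa was at 0.00, Tpi1, the triose phosphate isomerase, at 0.04 and the pyruvate kinase Pkm at 0.02 on the log2 scale.

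Lactate dehydrogenase interconverts pyruvate and lactate. Ldha had 8796, 9055, 10249, 10794 and 8969 normalized counts in controls and 10143, 9447, 8755, 10147 and 11296 in iSOD2 mice (log2 0.06 ± 0.08 SE, adjusted p = 0.740 by DESeq2). Ldhb had 16675, 16299, 14863, 15819 and 15233 and then 18094, 17433, 15751, 15942 and 15997 (log2 0.08 ± 0.05 SE, adjusted p = 0.449 by DESeq2). The genotypes overlapped for both, and both log2 fold changes were -0.01 after removal of the length trend. Gapdh, Aldoa, Pgk1 and Ldha belong to families with many processed pseudogenes, so reads of near-identical copies may be divided between loci.

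Litter and sex were compared in the same way, each with genotype as the only covariate. Most mice of litter A were male and most of litter B female, so these comparisons partly overlap. Between litters B and A, none of the 45 genes was called, against 3.50% of all genes tested, and edgeR called none. There were 4 that had an adjusted p of at most 0.05 by DESeq2, against 4.31%. Before adjustment 12 had p under 0.05, 4 of them higher in litter B, against 13.0% of all genes. Ldha was higher in litter B (log2 0.19 ± 0.06 SE, adjusted p = 0.0450 by DESeq2). Idh3g (log2 -0.19, adjusted p = 0.0366 by DESeq2), Ogdh (-0.18, adjusted p = 0.0302) and Pfkm (-0.16, adjusted p = 0.0496) were lower. Females over males, the log2 difference was -0.17 for Ogdh, -0.15 for Pfkm, 0.0030 for Idh3g and 0.06 for Ldha. The litter values come from fits without a term for sex. For all 4 the ranges of the litters overlapped, as for Ldha at 8755 to 9447 normalized counts in litter A and 8969 to 11296 in litter B.

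Between females and males, none of the 45 was called (0.420% of all genes) and none had an adjusted p of at most 0.05 (0.524% of all genes), by DESeq2, and edgeR called none. At an unadjusted p under 0.05 there were 7, 2 of them higher in females, against 6.60% of all genes. The lowest adjusted p was that of Pfkl, at 0.183 (DESeq2), with a log2 difference of 0.15, females over males.

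The difference between genotypes was also compared between the sexes and between the litters, as an interaction. Between the sexes 0 of the 45 had an unadjusted p under 0.05 in the DESeq2 interaction test, against 1.18% of all genes. Between the litters there were 2, Pfkm and Pgam2, against 1.79%, and neither passed after adjustment. With 2 mice of each genotype in litter A, these tests had little to work with.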

How the data were processed

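Total RNA of heart sections was depleted of ribosomal RNA and sequenced from stranded libraries. Adapters were removed by the authors with Trim Galore, and STAR and HOMER were used for alignment to mm10 and exon counting over 1 transcript of each gene. What the authors deposited were expected counts, or estimated counts, multiples of 0.5 with no normalization, and the deposited table gives one other unit, the exon length in bp. The counting command named no strand option, so overlapping genes on opposite strands are uncertain.

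Libraries held 16448090.5 to 24263085.5 counts over genes. Counts were rounded, and 17728 genes with at least 10 counts summed over the 10 libraries were kept. Genotype, litter, sex and interactions were tested over all of them with the DESeq2 1.42.0 Wald test (R 4.3.3), using median-of-ratios size factors, Benjamini-Hochberg adjustment and default independent filtering. Genotype was fitted without covariates, since no covariate is named in the study's methods. Normalized counts are counts divided by size factors. The script was tested on simulated data. Isoform shares and marker levels, the mean log2(normalized count + 1) of a list, were tested by exact two-sided permutation over 252 arrangements of 5 mice against 5 (smallest p 0.00794), and over 100 within sex and 120 within litter. The length trend was a loess fit (span 0.5) per library of log2 deviations on log2 exon length over genes whose mean reached 50 normalized counts.

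Alternatives were edgeR 4.0.16, TMM and upper-quartile scaling, other filters and thresholds, covariates, each litter and sex alone, length trend removal, and leaving out each mouse. Counting Eno1b with Eno1 was chosen after seeing the data. The 45 genes and all other lists were chosen with earlier results of these data known. Values in every mouse are given for genes at an adjusted p of at most 0.05, the highest and lowest log2 fold change of each role, and members of the isoform families; genes with an unadjusted p under 0.05 were added after their values were seen. Replicates are separate mice. A result under these rules is not reported here.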

Additional observations from a re-analysis of the deposited data

Results flagged for a closer look

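Each of 106 groups of 5 mice (45 genes and 8 isoform shares in each genotype) was examined for a mouse whose gap to its nearest neighbour exceeded Dixon's 95% critical value of 0.71 of the range. There were 3 such mice, and chance gives about 5.3. Control 2 had 99.1 normalized counts of Pfkfb1, and the other controls had 141 to 154. For Pkm, pyruvate kinase, iSOD2 8 had 22399 normalized counts and the other iSOD2 mice 24469 to 25024. The Pfkm share of the phosphofructokinases was 88.9% in iSOD2 7 and 86.4% to 87.1% in the other iSOD2 mice. No mouse appeared more than once.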

How the results depend on the processing

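Of the 45 genes, the number called between genotypes was 0 under every alternative with all mice or 1 litter, 1 in males alone (Mpc2), 2 with no fold threshold, and 0 to 1 without 1 mouse (1, Mpc2, without control 4 or iSOD2 8). The number at an adjusted p of at most 0.05, 2 as reported, was 0 by edgeR, 4 with upper-quartile scaling (Mpc1, Mpc2, Idh2 and Mdh1), 1 with sex as covariate (Mpc2), 0 after length trend removal, 0 in litter A, litter B or females alone, 1 in males alone (Mpc2), and 1 to 5 without 1 mouse (5 without control 4, and 1 without control 1, 2, 3 or 6 or iSOD2 5 or 7). Between litters 0 to 1 was called without 1 mouse (Pfkfb1 without control 1). The cause was not tested, except that fewer mice were compared in the subsets.

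Log2 fold changes near 0 turned sign. Pfkm was 0.026 in litter B and 0.028 in females. Pfkl was 0.00344 with upper-quartile scaling, 0.028 after length trend removal and 0.014 in litter B. Pfkfb2 was 0.00379 with sex and 0.00731 with litter as covariate, 0.069 after length trend removal, 0.22 in litter B and 0.16 in females. Eno3 was 0.00217 with upper-quartile scaling, 0.015 with sex and 0.023 with sex and litter as covariates, 0.073 in litter B, 0.012 in males and 0.016 in females. In females Gapdh was 0.00252, Eno1 0.018 and Pdhx 0.00365. Length trend removal gave -0.00929 for Ldha and -0.014 for Ldhb. In males Pdk1 was -0.029, Pdp1 -0.026 and Suclg2 -0.043, while Pdp1 was -0.00671 in litter B and Sucla2 -0.00885 in litter A. Without 1 mouse the range was -0.036 to 0.044 for Eno3, -0.12 to 0.16 for Pfkfb2, -0.037 to 0.040 for Pfkl and -0.000399 to 0.12 for Suclg2.

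Length trend removal put the difference of the Ldhb share at -0.071 points, that of Pfkfb2 at 0.060 and that of Pdk2 at -2.83 (exact p = 0.0317), and arrangements within sex gave -1.74 for Pdk2 (exact p = 0.03). Without 1 mouse the differences ran from -0.85 to 1.15 points for Hk2, -0.62 to 0.16 for Pfkm, -0.018 to 0.56 for Eno3, -0.42 to 1.24 for Ldhb, -2.61 to 0.69 for Pfkfb2, -2.40 to -1.31 for Pdk2 (exact p = 0.0476 without control 4) and -0.54 to 0.16 for Sucla2. Counting Eno1b with Eno1, chosen after seeing the data, gave 0.35 points for Eno3. The hepatocyte difference on the log2 scale was 0.97 to 2.24 without 1 mouse, lowest without control 1 (exact p = 0.0556), the erythroid one -0.57 to -0.26 (exact p = 0.0397 without iSOD2 10), and the white adipocyte one -0.43 to 0.22. No paired analysis was possible because the mouse numbers are unique and shared by no 2 groups; litter, which held both genotypes, was fitted as a covariate instead. With it 3 of the 45 had an adjusted p of at most 0.05 (Mpc1, Mpc2 and Idh2, at 0.0168 by DESeq2), and likewise 3 with sex and litter (Idh2 at 0.0336). Whether depth or the spread between mice limits the precision was not tested.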

Other observations

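A further 66 genes of glucose and citrate metabolism, outside the 45, were read in the same DESeq2 comparison of genotypes. None was called, and 2 had an adjusted p of at most 0.05, both higher in iSOD2 hearts and the only 2 of the 66 without overlap. The background over all genes was 6.09% at this adjusted p and 3.75% without overlap, so neither count was above it. Slc25a11, the oxoglutarate carrier of the malate-aspartate shuttle, had 6901 to 7936 normalized counts in controls and 7947 to 8763 in iSOD2 mice (log2 0.18 ± 0.05 SE, adjusted p = 0.00871 by DESeq2 and 0.129 by edgeR). Sdhb, the iron-sulfur subunit of succinate dehydrogenase, had 10477 to 11947 in controls and 11953 to 13676 in iSOD2 mice (log2 0.16 ± 0.05 SE, adjusted p = 0.0406 by DESeq2 and 0.178 by edgeR). After removal of the length trend their adjusted p by DESeq2 was 0.112 and 0.734. At an unadjusted p under 0.05 there were 11 of the 66, 9 of them higher, against 13.2% of all genes and 7.29% higher.

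Of the genes that handle citrate, ATP citrate lyase, Acly, had 1146 to 1203 normalized counts in controls and 1127 to 1314 in iSOD2 mice (log2 0.00 ± 0.06 SE, adjusted p = 0.989 by DESeq2). The mitochondrial citrate carrier Slc25a1 had, in the same order, 112 to 151 and 106 to 144 normalized counts (log2 -0.10 ± 0.13 SE), and received no adjusted p. Pdk4, the pyruvate dehydrogenase kinase that follows fasting and fatty acid supply, varied widely, with 5826 to 9233 in controls and 2548 to 7955 in iSOD2 mice (log2 -0.41 ± 0.30 SE, adjusted p = 0.474 by DESeq2).

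Fbp1, a fructose bisphosphatase of liver, had the highest log2 fold change of those 11, and is named after its values were seen. It had 3.62 to 82.8 normalized counts in controls and 45.6 to 234 in iSOD2 mice (log2 1.40 ± 0.71 SE) and received no adjusted p. The hepatocyte markers moved the same way, and their part in this value was not tested.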
